A study of Mus musculus with 12 samples.

Results

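miR-101a and miR-101b (probes mmu-miR-101a and mmu-miR-101b) are 2 of the 566 mouse microRNA (miRNA) probes measured in the ileum of NOD mice. They were chosen by name with their values in the 3 treatment groups already known, so their levels and differences are given as a description and carry no test. A miRNA guides an Argonaute protein to messenger RNAs that pair with its seed, the bases next to its 5′ end, and lowers the output of those messages. miR-101 is best known for repressing Ezh2, the enzyme of Polycomb repressive complex 2 that methylates histone H3 and silences genes, a role first described in human cancer cells. It has also been described to repress Ptgs2, the enzyme cyclooxygenase 2 that makes prostaglandins, in the mouse uterus, and Icos, a T cell costimulatory receptor, in mouse lymphocytes. In the intestine, Ezh2 is active in the dividing cells of the crypts. No messenger RNA was measured here, so neither Ezh2 nor any other target has a value.

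All 12 libraries were made at postnatal day 23 from males of NOD, a mouse strain prone to autoimmune diabetes, and all carry the same batch label. Of these, 4 were control, 4 were from mice labelled 1PAT antibiotics (antibiotic below) and 4 from mice labelled cecal material transfer (cecal transfer below), which the protocol calls restoration. The labels name no antibiotic agent, and they do not say whether mice given cecal material had received antibiotic first. Dams were assigned to groups together with their litters and no litter is given per library, so spread between libraries may partly be spread within a litter. A difference between groups may likewise be a difference between dams or litters, which cannot be told apart here from that of treatment. The labels name ileum and the design text speaks of intestinal epithelial cells. The NanoString nCounter assay ligates a tag to each mature miRNA, hybridises it to a coloured reporter and counts single molecules without amplification.

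The miR-101 sequences are shown because the members of the pair differ in only a few positions, and the probes had to tell them apart. RefSeq places miR-101a-3p on the minus strand at chr4:101346957-101346977 and miR-101b-3p on the plus strand at chr19:29135338-29135356 (GRCm38.p6). Both probe names were matched to these 3p arms by name, and the target sequence of each probe was not used here. The 4 mature sequences below are written 5′ to 3′ with the seed, bases 2 to 8, in capitals; miR-144-3p and miR-582-5p are added because they are the other entries of the RefSeq miRNA table used whose bases 2 to 7 equal those of a member.
miR-101a-3p: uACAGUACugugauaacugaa
miR-101b-3p: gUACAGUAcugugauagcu
miR-144-3p: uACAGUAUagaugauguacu
miR-582-5p: aUACAGUUguucaaccaguuac

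As annotated, the seeds of the pair are not the same heptamer, since that of miR-101a is ACAGUAC and that of miR-101b is UACAGUA. miR-101b-3p begins 1 base earlier than miR-101a-3p and ends 3 bases sooner, which shifts its seed by that base. The hairpin of miR-101b does hold the full length of miR-101a with 1 substitution, A16G, counted from 1 at the 5′ end of miR-101a-3p. The hairpins are shown whole, with the annotated 3p arm in capitals, to show that the base before miR-101a-3p in its own hairpin is the same as the first base of miR-101b-3p.
hairpin of miR-101a: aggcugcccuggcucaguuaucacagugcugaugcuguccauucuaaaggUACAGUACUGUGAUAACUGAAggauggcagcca
hairpin of miR-101b: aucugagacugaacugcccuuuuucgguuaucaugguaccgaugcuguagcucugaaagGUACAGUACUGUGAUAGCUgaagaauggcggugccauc

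The surroundings of the 2 hairpins resemble each other in RefSeq. The hairpin of miR-101a lies within the span of the long non-coding RNA E130102H24Rik, and its nearest protein-coding genes are Jak1 and Ak4. The hairpin of miR-101b lies within the span of Rcl1, a gene for ribosomal RNA processing, and the nearest protein-coding genes outside it are Ak3 and Jak2. Jak1 and Jak2 encode related cytokine-signalling kinases, and Ak3 and Ak4 encode related adenylate kinases. Whether the hairpins fall in exons or introns was not analysed here.

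Depth differed between the groups before any miRNA was considered. The recovered total ranged from 169844 to 274302 counts for control, from 120235 to 148297 for antibiotic and from 280114 to 393551 for cecal transfer libraries. Every pair of groups differed (exact two-sided permutation p = 0.0286, adjusted p = 0.0286 over the 3 pairs, the smallest that 4 libraries against 4 can give). The deposited signal was scaled to remove depth, and 1 count was worth 0.590 to 1.92 units of it. The median over the 33 herpesvirus probes, a measure of background in uninfected mice, spanned 8.50 to 12.6 units among control, 7.69 to 13.0 among antibiotic and 5.55 to 8.77 among cecal transfer libraries.

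miR-101b was higher in every cecal transfer library than in any other library. Its normalised signal was 80.3, 75.5, 81.0 and 92.8 units in control replicates 1 to 4. In antibiotic replicates 1 to 4 it was 81.7, 79.6, 94.2 and 77.2 units, and in cecal transfer replicates 1 to 4 it was 125, 116, 122 and 118 units. The antibiotic values overlapped the control values, with antibiotic replicate 3 above the highest control, and the cecal transfer values overlapped neither group.

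The control mean of miR-101b was 82.4 ± 7.35 units (SD, n = 4), the antibiotic mean was 83.2 ± 7.60 and the cecal transfer mean was 120.3 ± 4.11. From a linear model over all probes, with standard error (SE) in log2 units, cecal transfer exceeded control 1.46-fold (log2 difference 0.54, SE 0.10) and exceeded antibiotic 1.44-fold (0.53, SE 0.10). Antibiotic differed from control by 0.01 (SE 0.10), less than the SD between replicates of 0.11. The order of the groups was therefore control, antibiotic and cecal transfer, with the first pair of neighbours not separated beyond their spread.

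miR-101a was the weaker and more variable signal. It was at 32.96, 41.5, 50.3 and 37.8 units in control replicates 1 to 4. In antibiotic replicates 1 to 4 it was at 26.1, 37.4, 23.1 and 37.8 units, and in cecal transfer replicates 1 to 4 at 67.4, 63.4, 50.5 and 40.7 units. All cecal transfer values exceeded all antibiotic values, the closest being 40.7 against 37.8, while cecal transfer replicate 4 lay inside the control range of 32.96 to 50.3 and replicate 3, at 50.5, just above it. Antibiotic replicates 1 and 3 were the lowest of all libraries, and antibiotic replicates 2 and 4 lay inside the control range.

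The control mean of miR-101a was 40.6 ± 7.31 units (SD, n = 4), the antibiotic mean was 31.1 ± 7.60 and the cecal transfer mean was 55.5 ± 12.2. Cecal transfer exceeded antibiotic 1.77-fold (log2 difference 0.82, SE 0.21). It differed from control by 0.43 (SE 0.21), and antibiotic differed from control by −0.39 (SE 0.21). These latter differences were larger than the SD between replicates of 0.31 log2 units, but the groups overlapped. The order for miR-101a was antibiotic, control and cecal transfer, with both pairs of neighbours overlapping.

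**Figure D1:**
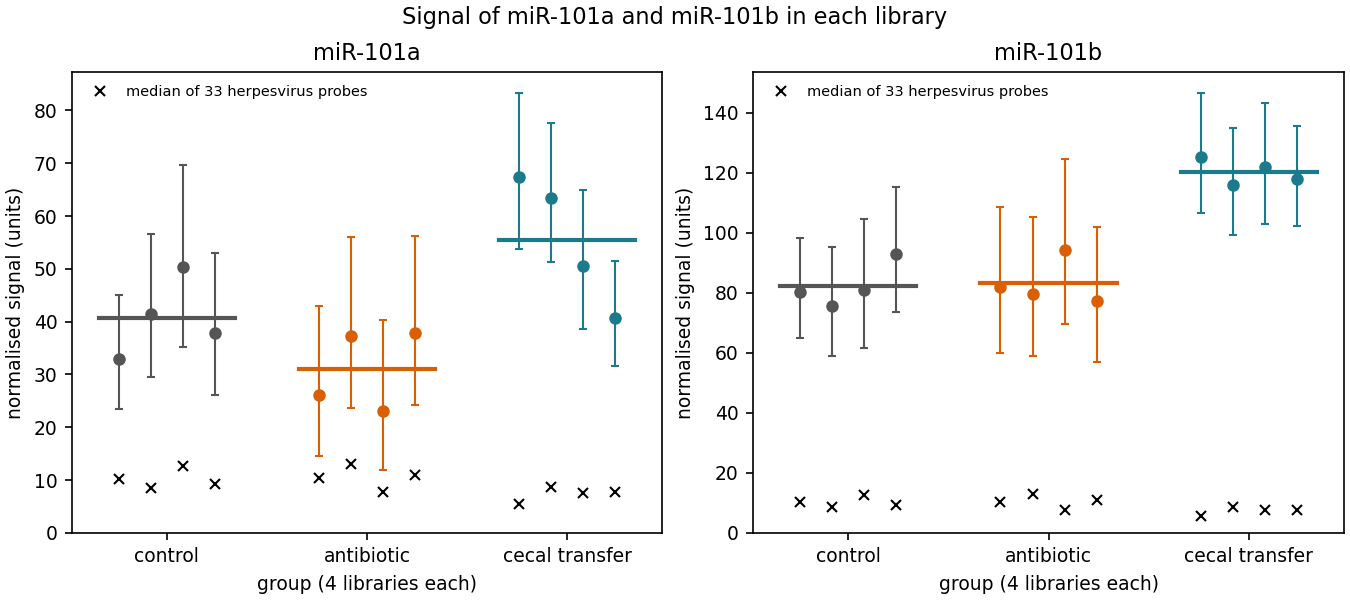
Normalised signal (units, linear axis from 0) of miR-101a and miR-101b in each of 4 libraries per group, in replicate order from left to right. Bars on points are 95% exact Poisson intervals from the recovered counts, horizontal lines are group means and crosses are the median of the 33 herpesvirus probes in the same library. All 4 cecal transfer values of miR-101b, 116 to 125 units, lie above the other 8 libraries, whereas miR-101a overlaps between cecal transfer and control.

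Of the pair, 1 member did not overlap between cecal transfer and control, and both did not overlap between cecal transfer and antibiotic, each time with cecal transfer higher. Over the 226 probes tested, cecal transfer and control did not overlap for 29.6%, with cecal transfer higher for 16.8% and lower for 12.8%. Cecal transfer and antibiotic did not overlap for 33.6%, with cecal transfer higher for 19.9% and lower for 13.7%. Both members overlapped between antibiotic and control, where 8.41% of probes did not, with antibiotic higher for 6.19% and lower for 2.21%. Since the pair was chosen on these values, nothing is read from its counts. The cecal transfer libraries enter both of these comparisons, so the values do not stand as separate evidence. Because RNA was measured in bulk and not per cell, more cells that carry miR-101 and more miR-101 per cell cannot be told apart.

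The recovered counts show how much of this spread is counting error. miR-101b rested on 58 to 95 counts among control, 47 to 49 among antibiotic and 147 to 200 among cecal transfer libraries. Its SD in cecal transfer was 3.42% of the mean, below the 7.72% that counting alone gives, and its 8.92% in control and 9.14% in antibiotic were also below the counting values of 11.6% and 14.4%. For miR-101b, no spread between libraries beyond counting error was therefore detectable at this depth. miR-101a rested on 33 to 39 counts among control, 12 to 24 among antibiotic and 61 to 94 among cecal transfer libraries. Its SD was 18.0% of the mean in control and 24.5% in antibiotic, close to the counting values of 16.5% and 23.99%, but 22.0% in cecal transfer, where counting gives 11.5%. The intervals cover counting error only.

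Background bears on miR-101a more than on miR-101b. miR-101a stood at 3.25 to 4.88 times the herpesvirus median among control, 2.5 to 3.43 times among antibiotic and 5.31 to 12.1 times among cecal transfer libraries. It exceeded the second-highest herpesvirus probe in all 4 control and all 4 cecal transfer libraries but in 1 of 4 antibiotic libraries. miR-101b exceeded it in all 12, at 6.13 to 12.3 times the median in antibiotic and 13.2 to 22.6 times in cecal transfer libraries. The highest herpesvirus probe, mghv-miR-M1-7-5p, stood apart at 50.1 to 426 units and exceeded miR-101a in 11 of 12 libraries. It spanned 69.1 to 426 units in control, 86.6 to 146 in antibiotic and 50.1 to 98.5 in cecal transfer libraries. miR-101b was above it in 5 of 12 libraries, which were all 4 cecal transfer libraries, 1 of 4 control and 0 of 4 antibiotic libraries. This split depends on both probes, since mghv-miR-M1-7-5p had its lowest mean, 68.4 units, in cecal transfer. After subtraction of 32 units, the limit used for testing, the log2 difference of miR-101a between cecal transfer and antibiotic became 3.13 (SE 0.91). Antibiotic replicates 1 and 3 fall below that limit, and antibiotic replicates 2 and 4, at 37.4 and 37.8 units, lie only a little above it.

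Depth moved in the same direction as the cecal transfer values. Because depth did not overlap between any groups, its part and that of the treatment cannot be told apart, with or without a covariate. With log2 depth in the model, the log2 difference between cecal transfer and antibiotic was 1.33 (SE 0.61) for miR-101a and 0.80 (SE 0.29) for miR-101b. Against control it was 0.68 (SE 0.35) and 0.67 (SE 0.17). The standard errors were wider than without the covariate.

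**Figure D2:**
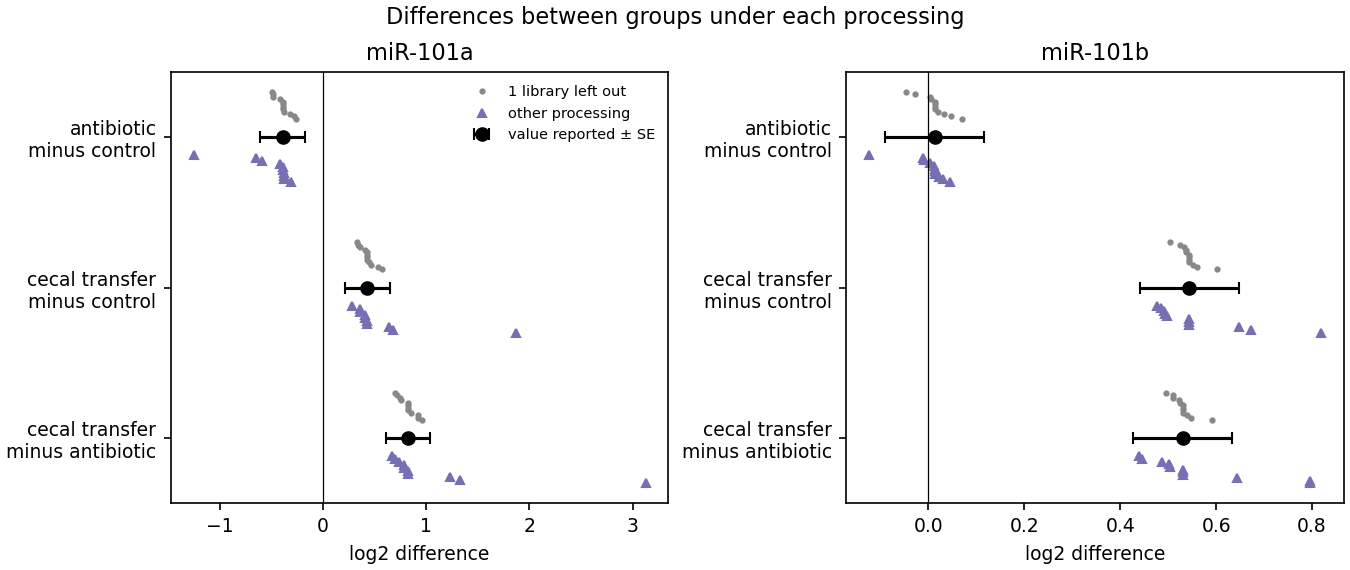
Log2 difference between groups for miR-101a and miR-101b, with the reported value ± SE in black, values with 1 library left out in grey and other processing in purple. Both cecal transfer differences stay above 0 throughout, and the far purple points of miR-101a, up to 3.13, come from the subtraction of 32 units.

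The ratio of miR-101b to miR-101a within a library is free of the scaling between libraries. It ranged from 1.61 to 2.45 for control, from 2.04 to 4.08 for antibiotic and from 1.83 to 2.90 for cecal transfer libraries, and all groups overlapped. Leaving out antibiotic replicate 3 moved the difference in log2 ratio from 0.42 to 0.22 for antibiotic against control and from −0.31 to −0.11 for cecal transfer against antibiotic. Leaving out cecal transfer replicate 4 moved it from 0.11 to −0.02 for cecal transfer against control. The mean log2 ratio was 1.03 ± 0.31 (SD, n = 4), 1.45 ± 0.48 and 1.14 ± 0.32 in the same order. The highest ratios, 4.08 and 3.13, belonged to antibiotic replicates 3 and 1, in which miR-101a was lowest. Within groups, the deviations of the members' log2 signals from their group means correlated at −0.39 over the 12 libraries. Both signals share the depth and scaling of each library. Because miR-101b had no detectable spread beyond counting error, this value cannot show whether the members rise and fall together. A ratio above 1 does not show that miR-101b is the more abundant molecule, since probes can differ in efficiency.

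**Figure D3:**
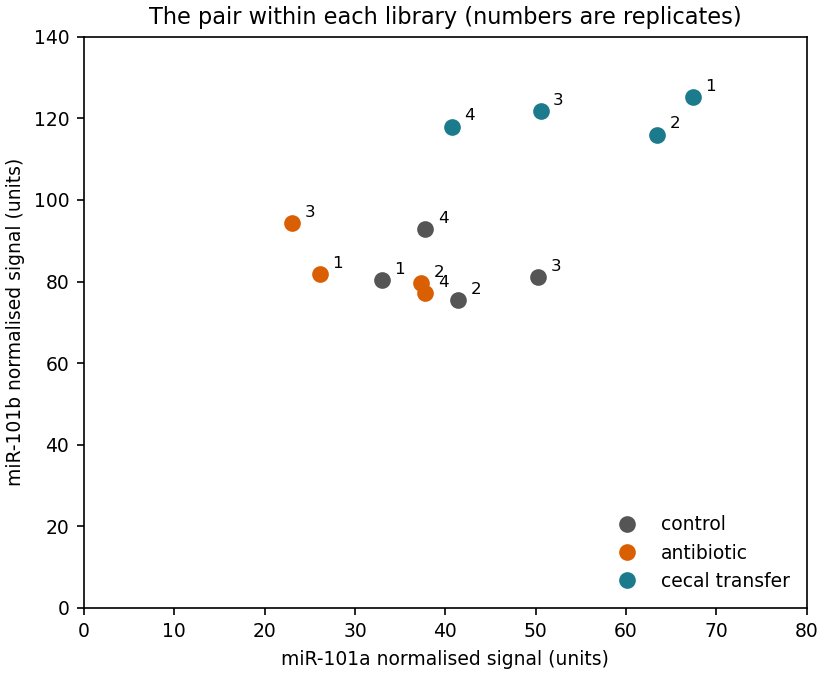
Normalised signal (units) of miR-101b against that of miR-101a, a point per library, with replicate numbers and colours for the 3 groups. The cecal transfer libraries are separated from the rest along the miR-101b axis, at 116 units and above, and spread from 40.7 to 67.4 units along the miR-101a axis.

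Among mouse probes ranked from the highest signal, miR-101b stood at 125 to 139 in control and 108 to 112 in cecal transfer libraries, and miR-101a at 180 to 201 and 162 to 193. The miRNAs nearest to miR-101b over the 12 libraries, by root mean square (RMS) difference of mean-centred log2 signals, were miR-30c (0.10), miR-29c (0.13), miR-181a (0.13), miR-122 (0.14) and miR-100 (0.14), against a median of 0.34 over 225 probes; these were picked on the same libraries, and their likeness is a description. All 5 had similar group means in control and antibiotic and a higher mean in cecal transfer libraries, as for miR-30c with 1761 ± 140, 1698 ± 94.1 and 2410 ± 243 units. The nearest to miR-101a were miR-130b (0.25), miR-362-3p (0.27), miR-155 (0.28), miR-3472 (0.29) and miR-350 (0.29), with a median of 0.48. Their means were lowest in antibiotic and highest in cecal transfer libraries, as for miR-362-3p with 39.2 ± 9.61, 62.1 ± 21.4 and 77.9 ± 5.74 units in antibiotic, control and cecal transfer. The RMS difference between the members was 0.36, which made miR-101b the 23rd nearest to miR-101a and miR-101a the 120th nearest to miR-101b. Counting error enters this difference, as miR-101a rested on only 12 to 24 counts in antibiotic libraries, and its part was not tested. The ranks therefore do not show that the members differ in behaviour.

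**Figure D4:**
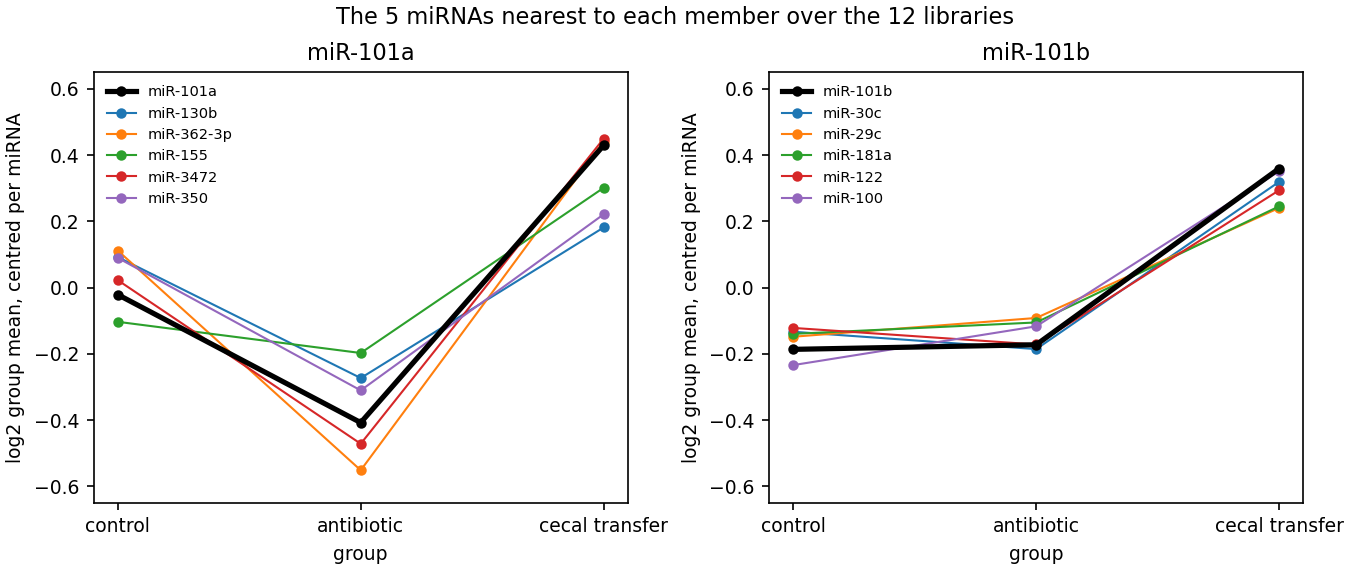
Log2 of the group mean signal, centred per miRNA, for each member (black) and the 5 miRNAs nearest to it over the 12 libraries. Those around miR-101b are level in control and antibiotic and higher in cecal transfer, and those around miR-101a have their lowest mean in antibiotic.

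Other miRNAs that share a seed core with the pair were tested in the same model. miR-144, an erythroid miRNA whose bases 2 to 7 equal those of miR-101a, had means of 187 ± 12.5 units in control libraries, 239 ± 19.1 with antibiotic and 304 ± 50.2 with cecal transfer (SD, n = 4). It rose from control to cecal transfer by log2 0.69 (SE 0.12, limma adjusted p = 0.000626) and exceeded antibiotic in cecal transfer by 0.33 (limma adjusted p = 0.0433). The latter call was lost on leaving out control replicate 1, antibiotic replicate 1, 2 or 4, or cecal transfer replicate 1, 3 or 4, and with edgeR (adjusted p = 0.0725) and DESeq2 (adjusted p = 0.139). Its adjusted p ranged from 0.00461 to 0.503 over 23 alternatives. Against control, antibiotic had a log2 difference of 0.36 (limma adjusted p = 0.131). miR-582-5p, whose bases 2 to 7 equal those of miR-101b, had 67.2 ± 2.26, 64.2 ± 5.76 and 68.5 ± 4.91 units in control, antibiotic and cecal transfer and passed in no comparison (limma adjusted p = 0.831, 0.917 and 0.572 for antibiotic against control, cecal transfer against control and cecal transfer against antibiotic). Over all 226 probes, limma called 30.1% between cecal transfer and control, 18.1% higher and 11.9% lower, and 32.7% between cecal transfer and antibiotic, 19.9% higher and 12.8% lower. It called 0 between antibiotic and control, with 34 at an unadjusted p under 0.05, and edgeR called 0 and DESeq2 3.

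Of 9 other miRNAs described to repress Ezh2 in human or mouse cells, 7 were tested. Only miR-25, of the miR-106b-25 cluster, passed, which is 1 of 7 in each cecal transfer comparison beside the 30.1% and 32.7% of all probes. It fell in cecal transfer, at 1729 ± 76.9 units against 2135 ± 188 in control (log2 −0.30, SE 0.07, limma adjusted p = 0.00798) and 2108 ± 126.2 in antibiotic libraries (−0.28, adjusted p = 0.0108). The median log2 difference of the 7 was −0.02 against control and −0.03 against antibiotic, beside 0.05 and 0.04 over all probes tested. miR-26a, a repressor of Ezh2 in mouse muscle cells and in lymphoma, had 151 ± 25.3, 148 ± 14.4 and 158 ± 21.2 units in control, antibiotic and cecal transfer (limma adjusted p = 0.738 for cecal transfer against control). miR-26b had a log2 difference of 0.22 for cecal transfer against control (limma adjusted p = 0.132), and it passed without cecal transfer replicate 2 (adjusted p = 0.0424). miR-30d, miR-98, miR-124 and miR-138 passed in no comparison either, and miR-214 and miR-217, at most 24.6 and 17.4 units in any library, were too weak to test. miR-98 had −0.20 for cecal transfer against control (limma adjusted p = 0.0576) and stayed uncalled there in 18 of 23 alternatives. miR-30d passed as lower in cecal transfer than in antibiotic without antibiotic replicate 2 (adjusted p = 0.0479) and stayed uncalled in 21 of 23 alternatives. miR-25 lost both calls with log2 depth in the model (adjusted p = 0.256 and 0.693).

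Of 5 miRNAs described in human prostate cancer cells as silenced by Ezh2, 4 were tested, and 2 passed in each cecal transfer comparison, 1 higher and 1 lower, beside 30.1% and 32.7% of all probes. miR-181a, a lymphocyte miRNA, rose from 1334 ± 130 units in control and 1366 ± 85.5 in antibiotic to 1742 ± 87.2 in cecal transfer (log2 0.39 and 0.35, limma adjusted p = 0.00183 and 0.00466). It lost its call against control under quantile normalisation (adjusted p = 0.243), and against antibiotic under quantile normalisation, median centring (0.0718) and log2 depth (0.338). miR-200c, an epithelial miRNA, fell from 4158 ± 338 and 4664 ± 347 to 3346 ± 319 units (log2 −0.31 and −0.48, limma adjusted p = 0.0109 and 0.000837). It lost both calls with log2 depth in the model (adjusted p = 0.0748 and 0.259), and the call against control under quantile normalisation (0.0785). miR-200b and miR-203 passed in no comparison, and the probe shared by miR-181b and miR-181d was too weak to test. The median log2 difference of the 4 was −0.10 against control and −0.07 against antibiotic, beside 0.05 and 0.04 over all probes tested.

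Of 3 other miRNAs described to repress Ptgs2, all tested, only miR-199a-3p passed, and it was higher in cecal transfer. This is 1 of 3 in each cecal transfer comparison, beside 30.1% and 32.7% of all probes called, 18.1% and 19.9% as higher. miR-199a-3p had 1585 ± 128 units in control libraries, 1546 ± 146 with antibiotic and 1944 ± 172 with cecal transfer. Its log2 difference was 0.29 against control (limma adjusted p = 0.0238) and 0.33 against antibiotic (limma adjusted p = 0.0112). The call against control was lost without control replicate 1 or 2 or cecal transfer replicate 1, 3 or 4 (adjusted p = 0.0557 to 0.0749), and both calls were lost under median centring (adjusted p = 0.129 and 0.0873) and quantile normalisation (0.0743 and 0.121). The call against antibiotic was also lost with log2 depth in the model (adjusted p = 0.248). miR-199a-3p is also a marker of smooth muscle and fibroblasts. miR-16 had −0.17 against control (limma adjusted p = 0.112) and −0.19 against antibiotic (0.0543), and miR-26b is given above. miR-16 passed as lower against control without control replicate 4 or cecal transfer replicate 2 (adjusted p = 0.0458 and 0.0462). Against antibiotic it passed without control replicate 3 or 4 or cecal transfer replicate 2 (adjusted p = 0.0242 to 0.0475). It stayed uncalled in 19 of 23 alternatives against control and in 15 of 23 against antibiotic. The median log2 difference of the 3 was 0.22 against control and 0.14 against antibiotic, beside 0.05 and 0.04 over all probes tested.

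**Figure D5:**
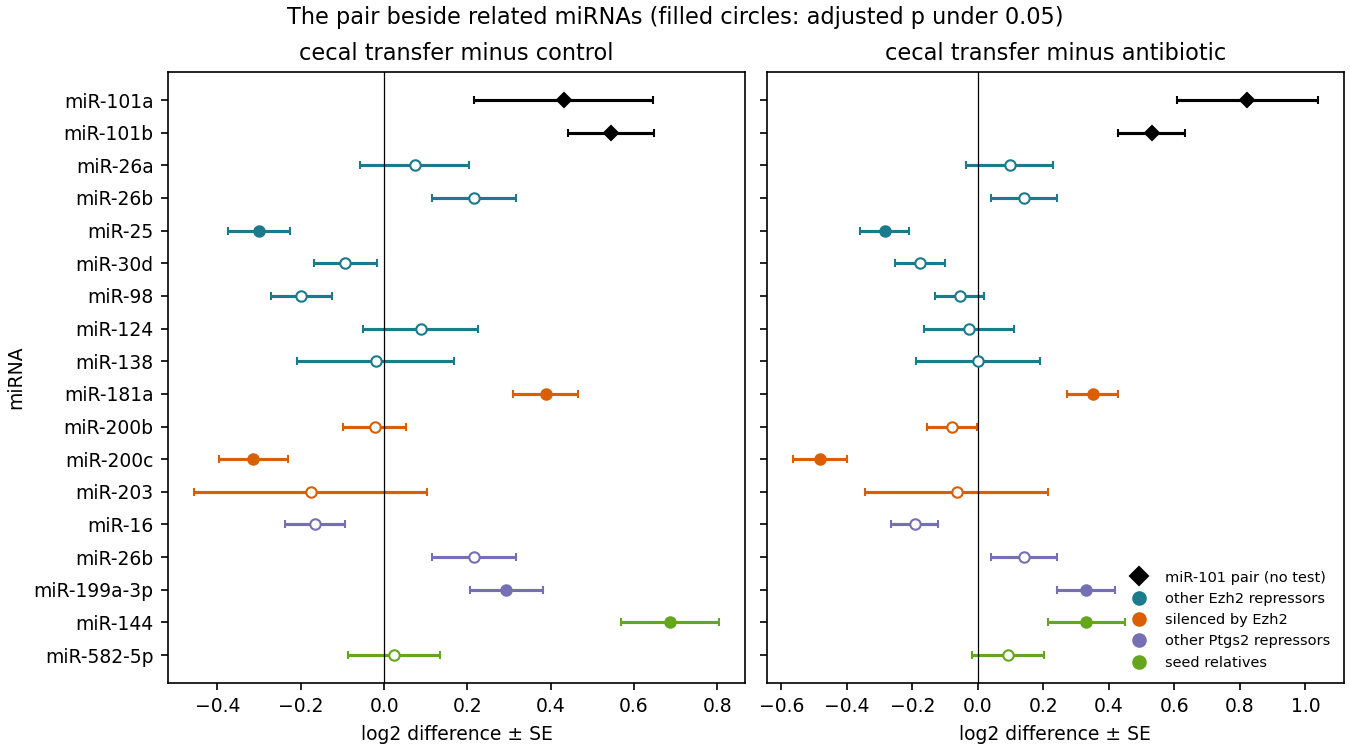
Log2 difference ± SE of the pair (black diamonds, no test) and of the tested members of the related lists, for cecal transfer against control and against antibiotic. Filled circles passed at a limma adjusted p under 0.05: miR-25 and miR-200c are lower in cecal transfer, and miR-181a, miR-199a-3p and miR-144 are higher.

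Markers of cell types also moved between the groups, and their counts stand beside 18.1% of all probes higher and 11.9% lower against control, and 19.9% and 12.8% against antibiotic. The summed signal of 4 smooth muscle and fibroblast miRNAs was 28167 to 35470 units for control, 31953 to 34387 for antibiotic and 38972 to 46937 for cecal transfer libraries, and 3 of the 4 rose in cecal transfer against either group. Both enterocyte miRNAs, miR-192 and miR-194, fell against control. Against antibiotic, miR-194 fell, while miR-192 did not pass (limma adjusted p = 0.0528) but passed in 4 of 12 fits with a library left out. The sum of miR-192 and miR-194 was 12067 to 22540 units in control, 13864 to 16832 in antibiotic and 9524 to 12403 in cecal transfer. Of 5 epithelial miRNAs of the miR-200 family, miR-200c among them, 3 fell against either group, with sums of 16744 to 19423, 17958 to 19986 and 15142 to 17032 units in the same order. Of 5 leukocyte miRNAs, 2 rose against control and 3 against antibiotic, and of 3 erythroid miRNAs, miR-144 among them, 2 and 3 rose. The erythroid sum was 1128 to 1381, 1208 to 1492 and 1466 to 1981 units. The endothelial pair had 1 fall in each cecal transfer comparison, and its sums overlapped between all groups, as did those of the 5 leukocyte miRNAs and the 4 striated muscle miRNAs. Among 3 tested striated muscle miRNAs, miR-499 was higher in cecal transfer than in control, and miR-1 was higher there than in antibiotic. The mean of miR-1 in cecal transfer, 1191 ± 230 units, was not above the 1351 ± 308 of control, and that of antibiotic was 763 ± 266. With log2 depth in the model, 23 of all probes were called between cecal transfer and control and 0 between cecal transfer and antibiotic. Several of the marker calls depended on single libraries. Against control, miR-143 and miR-192 each lost their call without control replicate 1, 2 or 3 or cecal transfer replicate 1, 3 or 4, with adjusted p up to 0.0966 and 0.120. miR-142-5p lost it without control replicate 1, 2 or 4 or the same cecal transfer libraries (adjusted p up to 0.0807), miR-155 without control replicate 1 or 2 or cecal transfer replicate 1 or 3, and miR-499 without control replicate 1 or cecal transfer replicate 1 or 4. Against antibiotic, miR-451 lost its call without antibiotic replicate 2, 3 or 4 or cecal transfer replicate 1, 3 or 4, and miR-142-5p without antibiotic replicate 1 or 4 or those cecal transfer libraries. miR-150 lost it without antibiotic replicate 1, 2 or 4 or cecal transfer replicate 1 or 2, and miR-486 without antibiotic replicate 3 or 4 or cecal transfer replicate 1 or 4. miR-1 lost it without antibiotic replicate 2, 3 or 4 or cecal transfer replicate 4, and miR-141 without antibiotic replicate 4. No marker was at 0 in any library, but this holds for every probe, as the lowest recovered count was 1. The part of these shifts in the values of miR-101a and miR-101b was not tested.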

How the data were processed

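The authors deposited normalised signal for 599 probes, 566 of mouse and 33 of herpesviruses, from the nCounter mouse miRNA panel of version 1.5, per the labels' protocols. Its software and scaling method: not given in the sources used here. All deposited signal values (100%) were whole counts times 1 factor per library, within 0.01 of a count, and sums over the 100 most abundant mouse probes lay between 220014 and 222309. Signal was analysed as log2(value + 1), which understates the change of weak probes. A mouse probe was tested if above 32 in at least 4 libraries (226 probes, both members among them, miR-101a above 32 in 10 libraries and miR-101b in 12). limma 3.58.1 in R 4.3.3 was fitted over the 12 libraries with a variance trend and Benjamini-Hochberg adjustment at 0.05, and it was tested on simulated data. As alternatives, recovered counts were fitted with edgeR 4.0.16 and, separately, DESeq2 1.42.0. edgeR called 0, 70 and 73 probes for antibiotic against control, cecal transfer against control and cecal transfer against antibiotic.

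Replicates differed by more than counting noise (chi-square per degree of freedom 1.67 to 12.8), so none was merged. The labels do not say that they are separate animals, so p-values measure the spread between these libraries. Sequences and gene neighbours are RefSeq's (GRCm38.p6). The members and lists were chosen with earlier results of these data known. Besides the members, all members of the lists and the 5 nearest tested probes of each member were eligible to be named.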

Additional observations from a re-analysis of the deposited data

Results flagged for a closer look

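Neither miR-101a, miR-101b nor their ratio had a library that stood apart from the other 3 of its group. Among 150 sets of 4 values examined for named miRNAs and the ratio, 8 had a library whose gap to its neighbour, as a share of the range, exceeded Dixon's critical value, which chance gives in about 1 of 20 sets. miR-25 was 1920 units in antibiotic replicate 2 against 2158 to 2191 in the others. miR-203 was 1781 units in cecal transfer replicate 2 against 741 to 782. miR-1 was 1162 units in antibiotic replicate 1 against 615 to 651. miR-142-5p was 54.5 units in control replicate 3 against 41.2 to 42.5, and 75.3 units in cecal transfer replicate 1 against 61.4 to 63.1. miR-223 was 810 units in antibiotic replicate 3 against 305 to 335, and 934 units in cecal transfer replicate 2 against 311 to 336. miR-451 was 1579 units in cecal transfer replicate 1 against 1142 to 1205.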

How the results depend on the processing

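The cecal transfer differences of both members kept their sign under all alternatives run, as did the antibiotic difference of miR-101a, while that of miR-101b kept it in 18 of 23. With 1 library left out, the log2 difference for antibiotic against control was −0.49 to −0.26 for miR-101a and −0.05 to 0.07 for miR-101b. For cecal transfer against control it was 0.33 to 0.57 and 0.50 to 0.60, and for cecal transfer against antibiotic 0.69 to 0.96 and 0.50 to 0.59. Subtraction of 32 units gave −1.25, 1.87 and 3.13 for miR-101a in these comparisons, 0.82 and 0.80 for miR-101b in cecal transfer against control and antibiotic, and 1.28, −1.05 and −2.33 for the difference in log2 ratio, whose reported values were 0.42, 0.11 and −0.31. miR-101a falls to the floor of 1 there in antibiotic replicates 1 and 3 and in control replicate 1, which was at 32.96 units. The floor therefore enters every comparison of miR-101a with control or antibiotic, whereas miR-101b stays above it in all 12. With 1 library left out, the ratio differences were 0.22 to 0.56, −0.02 to 0.20 and −0.45 to −0.11. Log2 depth as a covariate gave 1.33 for miR-101a (cecal transfer against antibiotic) and −0.12, 0.67 and 0.80 for miR-101b. Subtraction of the herpesvirus median, chosen after seeing the data, gave 1.23 and 0.64 for miR-101a and miR-101b in cecal transfer against antibiotic. Other values moved by less than the SD between replicates. A filter of 100 units left miR-101a untested.

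The counts of called probes were 0 for antibiotic against control, but 2 with quantile normalisation, 4 with subtraction of 32, 3 with DESeq2 and 0 to 8 with a library left out, being 3 without control replicate 1, 8 without control replicate 4 and 1 without antibiotic replicate 1. For cecal transfer against control, 68 became 23 with log2 depth, an alternative added for these counts after seeing the data, and for cecal transfer against antibiotic 74 became 161 without a filter and 0 with log2 depth. Higher and lower calls against control were 41 and 27, whereas median centring gave 28 and 28, and quantile normalisation 26 and 27. Against antibiotic they were 45 and 29, whereas median centring gave 22 and 32, and quantile normalisation 23 and 28. The causes were not tested. For the other named miRNAs, 2729 of 2940 values under alternatives kept their call or stayed uncalled. Of the rest, 166 lost a call and 45 gained a call, and none reversed a call. With each library left out in turn, 30 of 44 calls held. Of the 5 miRNAs nearest to each member, 2 to 5 stayed nearest to miR-101a and 4 to 5 to miR-101b with a library left out.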
